A study of Homo sapiens with 2 samples.

Results

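The HOX genes of the clusters A, B, C and D were examined in BT549 cells. BT549 is an established line from a human breast carcinoma and has a mesenchymal, basal-like phenotype. Members were the genes whose symbol is HOXA, HOXB, HOXC or HOXD followed by a number. They numbered 28 of the 19029 genes of the deposited table, and the other 11 of the 39 human HOX genes are not analysed here. RNA of BT549 cells that overexpress SNHG15, a long non-coding RNA that hosts a small nucleolar RNA, was sequenced beside RNA of BT549 cells that carry a control vector, named pcIP2. Both kinds of cell grew in DMEM with fetal bovine serum, penicillin and streptomycin, and whether either line is a single clone is not stated. There was 1 library per group, so no difference between the libraries has a replicate check and no p-value was computed. The intervals given are 95% intervals and cover counting error only. In such bulk RNA, fewer cells of a type and less RNA per cell cannot be told apart. The library of the overexpressing cells is called the SNHG15 library and the other the vector library.

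HOX genes encode transcription factors that bind DNA through a homeodomain and give cells their position along the body axis. They stand in clusters, numbered by paralogue, in which low numbers are used in anterior and high numbers in posterior parts of the embryo. PBX, MEIS and PKNOX proteins are their DNA-binding partners, Polycomb complexes keep silent clusters closed, Trithorax complexes keep active ones open, and retinoic acid switches on genes at the low-numbered end. Adult cells often keep a stable HOX code that reflects where they came from, and breast cancers can depart from it.

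The libraries held 16570496 and 20799017 counts, SNHG15 library first. SNHG15 itself was at 1997 and 23.3 CPM, the count relative to a library total scaled by the TMM method. The mesenchymal marker VIM was at 1998 and 1993 CPM and the epithelial cadherin CDH1 at 0.696 and 0.551 CPM, while ESR1, PGR and EPCAM are not analysed here. The 6 mesenchymal markers were all measured, with CDH2 higher (20.9 and 3.96 CPM) and FN1, CAV1 and ZEB1 lower by the rule given below. ERBB2 was listed with CDH1 as low or absent in BT549 but was at 161.1 and 183.8 CPM. Of the markers of other cell types, 1 of 6 haematopoietic genes (CD14, at 7.71 and 17.4 CPM), 1 of 4 endothelial genes (KDR, with 1 count in each library), 2 of 4 neural genes (TUBB3 at 313.5 and 165.1 CPM, SYP at 9.97 and 7.41) and 2 of 4 fibroblast genes (COL1A1 at 624.8 and 1290 CPM, PDGFRB at 3.83 and 4.66) had a row. Their part in the HOX values was not tested.

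The HOX clusters also hold microRNA genes, and their sequences are shown because they lie inside annotated models of HOX genes and can pair with HOX messages. Whether they share a transcript with those genes was not tested. The gene of miR-196b lies inside the model of HOXA9 (chr7:27169528-27169549, minus strand). Copies of the miR-196a gene lie inside those of HOXC6 (chr12:53991762-53991783, plus strand) and HOXB7 (chr17:48632532-48632553, minus strand). The gene of miR-10a lies inside that of HOXB4 (chr17:48579904-48579926, minus strand). Their mature sequences, from RefSeq on GRCh38.p14 with the seed (the second to the eighth base) in capitals, show that miR-196a and miR-196b share a seed and that miR-10a has another.
hsa-miR-196a-5p: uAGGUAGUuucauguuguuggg
hsa-miR-196b-5p: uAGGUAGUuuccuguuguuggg
hsa-miR-10a-5p: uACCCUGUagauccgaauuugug

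HOXB8 is a known target of miR-196, which directs cleavage of its message. The 3′ untranslated region of HOXB8 could pair with 21 of the 22 bases of miR-196a without a gap, counting only A:U and G:C pairs. It was the single gene of 18816 that reached 21, against a next highest of 17 and a median of 13 in GENCODE 29. An exact match to the seed of miR-196 (ACTACCT in the message) stood in the 3′ untranslated region of 5 of the 17 HOX genes compared below, which were HOXA9, HOXB6, HOXB7, HOXB13 and HOXC8, against 7.27% of all genes. HOXB8 has no such exact match. A match to the seed of miR-10a (ACAGGGT) stood in 1 of the 17, HOXB3, against 12.98% of all genes. These matches are letters only. Mature microRNAs are not measured by these libraries, and their part in any HOX level was not tested.

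Upstream sequence is shown for HOXA9, which had the highest ratio of the genes compared below, and for HOXC4 and HOXC5, which both had more counts in the SNHG15 library and whose RefSeq entries start at the same base. RefSeq promoter entries matched 11 of the 28 members and 2 of the 17 compared. Each run is the first 250 bases of the RefSeq promoter entry on GRCh38.p14. The run of HOXA9 is chr7:27165538-27165787, minus strand, and that of HOXC4 and HOXC5 is chr12:54016638-54016887, plus strand. The runs do not lie directly before the start of every counted gene model. The HOXA9 run lies inside the counted model of HOXA9 (chr7:27162435-27175180), and the counted model of HOXC5 starts downstream of its run, at chr12:54032853. Capitals mark CCAAT and TATAAA on either strand.
HOXA9: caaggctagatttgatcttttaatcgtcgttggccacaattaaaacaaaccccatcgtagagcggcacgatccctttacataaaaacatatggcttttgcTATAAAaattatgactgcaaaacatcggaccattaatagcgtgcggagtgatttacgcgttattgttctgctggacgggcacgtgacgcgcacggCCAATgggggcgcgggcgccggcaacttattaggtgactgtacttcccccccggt
HOXC4 and HOXC5: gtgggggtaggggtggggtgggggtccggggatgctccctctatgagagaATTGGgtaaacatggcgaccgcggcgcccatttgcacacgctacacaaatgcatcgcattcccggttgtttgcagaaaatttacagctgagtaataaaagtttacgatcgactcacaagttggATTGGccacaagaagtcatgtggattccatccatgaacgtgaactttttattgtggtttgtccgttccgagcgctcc

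The HOXA9 run held 1 CCAAT, 1 TATAAA and 20 CG dinucleotides, and the HOXC4 and HOXC5 run 2 CCAAT, 0 TATAAA and 14 CG. Over the 35116 promoter entries of the same length, 32.01% held CCAAT and 10.7% TATAAA, and the median CG count was 11. GGGCGG and the HOX-PBX motif TGATNNAT, both searched on both strands, were in neither run and in 42.6% and 6.47% of the entries. None of the motifs overlapped another in these runs.

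HOXB and HOXC were the expressed clusters in both libraries. A gene was compared where its mean over both libraries was at least 1 CPM, which 17 of the 28 members reached (8 of 9 in HOXB, 8 of 9 in HOXC, 1 of 9 in HOXA, 0 of 1 in HOXD). HOXB spans chr17:48540894-48729178, HOXC chr12:53938765-54056030 and HOXA chr7:27092993-27200106 (hg38). Pairs of values below give the SNHG15 library first and the vector library second. Summed over members, HOXB was at 247.5 and 360.9 CPM, HOXC at 126.5 and 91.8, HOXA at 6.49 and 0.901, and HOXD at 0.174 and 0.200.

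Levels of different genes were compared per length, from the authors' deposited FPKM. The lengths behind these FPKM are not stated. For some genes, such as HOXB7 and HOXC10, they do not follow the exonic bases of GENCODE 29. Ranks given here are ranks of the deposited FPKM, and some would differ by exonic bases. HOXB2, an anterior gene of hindbrain patterning, was highest among the members in both libraries, at 26.9 and 34.3 FPKM, and in the vector library it exceeded 94.5% of all genes of the table. In the vector library HOXB4 followed at 16.4 FPKM, HOXB7 at 13.8, HOXB5 at 13.3 and HOXB6 at 12.1. HOXB7, which has been studied as an oncogene in breast cancer, was second in the SNHG15 library at 12.8 FPKM. HOXB9 broke the run, at 0.0468 and 0.224 FPKM, and the posterior HOXB13, known as a prostate lineage factor, was at 6.88 and 5.77 although it lies apart from the rest of the cluster.

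HOXC was used from paralogue 6 to paralogue 13. By deposited FPKM, HOXC13, a gene of hair and nail, was its highest member in the vector library at 5.85 FPKM. HOXC10, a gene of the hindlimb and lower spinal cord, was highest in the SNHG15 library at 9.004 FPKM. In the vector library HOXC10 had 421 counts over 2331 exonic bases and 4.31 FPKM, and HOXC13 had 295 counts over 2423 exonic bases. The rank of HOXC13 there thus holds for the deposited FPKM only. HOXC6, HOXC8, HOXC9, HOXC11 and HOXC12 lay between 2.10 and 4.32 FPKM in the SNHG15 library. HOXC4 was at 0.321 and 0.115 FPKM and HOXC5 at 0.903 and 0.479. No HOXA member passed 0.528 FPKM in the SNHG15 library or 0.0651 in the vector library. Some paralogue groups that both active clusters share were filled unevenly and others were not. HOXC4 was below 1 FPKM where HOXB4 was at 10.0 and 16.4, and HOXB9 was below 1 FPKM where HOXC9 was at 4.32 and 3.42. HOXB13 and HOXC13 were close, at 6.88 and 7.32 FPKM in the SNHG15 library and 5.77 and 5.85 in the vector library.

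**Figure D1:**
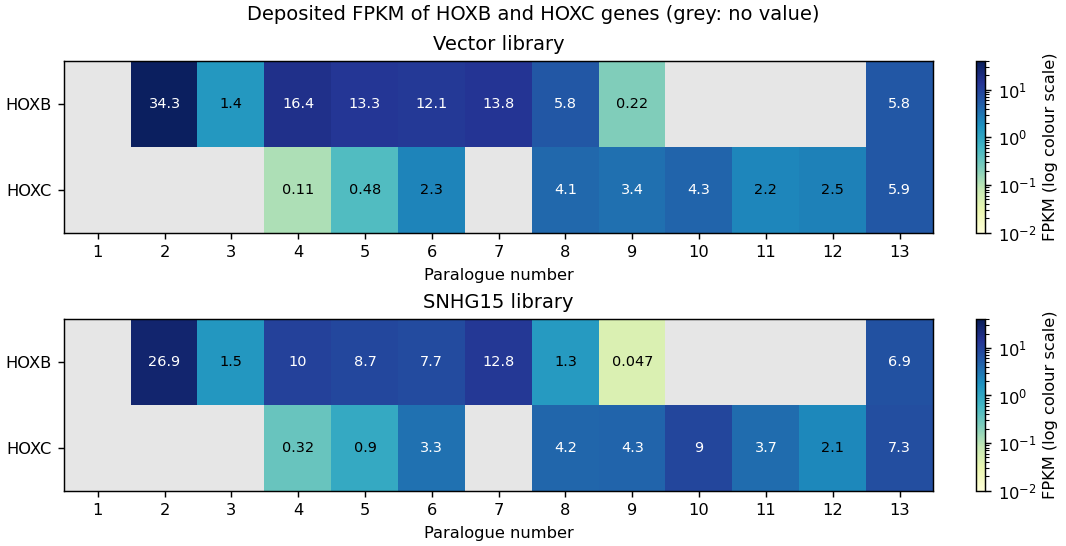
Deposited FPKM of the genes of HOXB and HOXC, with clusters as rows and paralogue numbers as columns, in the vector library (top) and the SNHG15 library (bottom), on a log colour scale; grey cells have no value, either because the gene does not exist in humans or because it is not analysed here. HOXB2 is highest in both libraries (34.3 and 26.9 FPKM), and HOXB9 and HOXC4 are the palest cells.

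The HOX genes did not move as one group. Of the 17 compared, 4 were lower in the SNHG15 library (HOXB4, HOXB5, HOXB6 and HOXB8), 3 were higher (HOXA9, HOXC10 and HOXC11) and 10 were neither. Lower and higher mean that the interval of the ratio excluded 1 and that the ratio reached 1.5-fold. Of all 12934 genes compared, 12.2% were lower and 13.3% higher by the same rule, so that the share of HOX genes called higher was near the background. Beyond 2-fold, where the whole interval lies past 2-fold, there were 1 HOX gene lower (HOXB8) and 1 higher (HOXA9), against 2.45% and 2.2% of all genes. Over all genes the beyond 2-fold calls were 285 higher and 317 lower, and 366 and 237 when libraries were scaled by their totals. The median log2 ratio of the 17 was −0.09, against 0.02 over all genes compared. By cluster it was −0.60 for HOXB and 0.33 for HOXC, and neither changed sign under the other scalings (−0.64 and 0.28 with DESeq2 size factors, −0.48 and 0.44 with library totals).

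**Figure D2:**
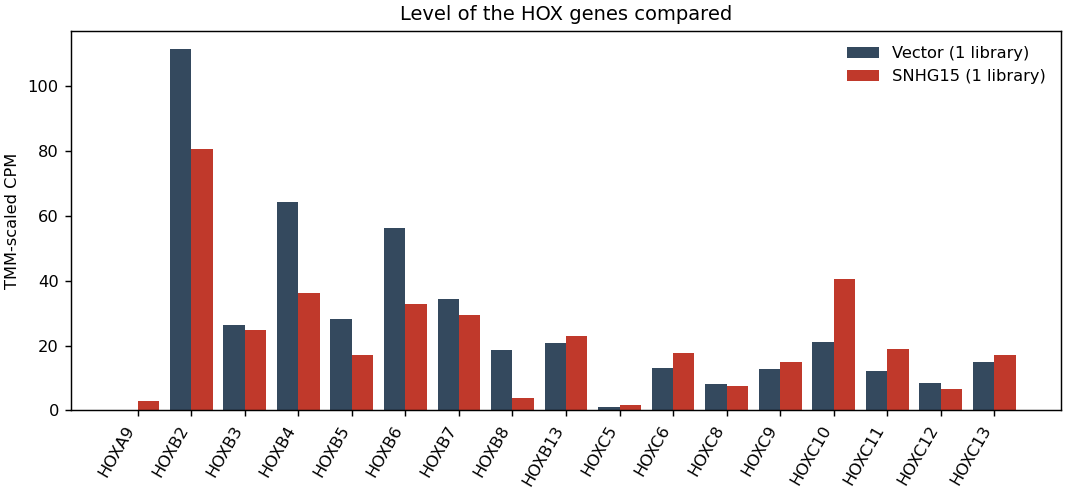
TMM-scaled CPM of the 17 HOX genes compared, by cluster and paralogue number, with 1 bar for the vector library and 1 for the SNHG15 library and no error bars, since each group has 1 library. HOXB4, HOXB5, HOXB6 and HOXB8 have the lower bar in the SNHG15 library, and HOXC10 and HOXC11 the higher one.

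In HOXB, 4 of the 5 central genes were lower, with HOXB7 as the exception. HOXB8 (ENSG00000120068, chr17:48611377-48614939, minus strand), a central gene best known from blood cell progenitors and spinal cord, had 68 and 372 counts (3.94 and 18.6 CPM), a ratio of 0.212 (0.161 to 0.275). It had the lowest ratio of the 17, and its exons overlap none of another gene, although the long model of HOXB7 runs across it. HOXB4, a gene known for the expansion of blood stem cells, was at 36.2 and 64.3 CPM, a ratio of 0.562 (0.510 to 0.619). HOXB6 was at 32.9 and 56.3 CPM, a ratio of 0.584 (0.527 to 0.646). HOXB5, whose exons overlap no other gene of the same strand, was at 17.0 and 28.2 CPM, a ratio of 0.605 (0.523 to 0.697). The intervals of HOXB4, HOXB5 and HOXB6 overlapped one another, and that of HOXB8 lay below all 3.

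The other HOXB genes differed less. HOXB2 was at 80.4 and 111.3 CPM, a ratio of 0.723 (0.675 to 0.773) that excluded 1 but did not reach 1.5-fold. HOXB7, which lies beside HOXB8 and whose gene model runs across it, was at 29.3 and 34.2 CPM, a ratio of 0.855 (0.760 to 0.960). For HOXB3 the ratio was 0.938 (0.824 to 1.07), at 24.8 and 26.4 CPM, and it was 1.02 by library totals. For HOXB13 it was 1.10 (0.955 to 1.27), at 22.9 and 20.8 CPM. The intervals of HOXB3 and HOXB13 included 1. HOXB9, under the minimum, had 2 and 12 counts and a ratio of 0.193 (0.0210 to 0.867). Summed over the 9 genes, HOXB had 4270 and 7208 counts, a ratio of 0.686 (0.660 to 0.712), and 0.712 (0.685 to 0.740) without HOXB8. Its 5 central genes, HOXB4 to HOXB8, pooled to 0.591 (0.561 to 0.624), and its anterior genes HOXB2 and HOXB3 to 0.764 (0.719 to 0.811).

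HOXB3 has a long gene model that spans HOXB4, HOXB5 and HOXB6, and 17.1% of the exonic bases of HOXB4 and 16.6% of those of HOXB6 also lie in an exon of some other gene read in the same direction. Reads there may be divided among the genes, so the values of HOXB3, HOXB4 and HOXB6 are uncertain.

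In HOXC, 2 genes were higher and 0 were lower. HOXC10 (ENSG00000180818, chr12:53985065-53990279, plus strand) had 701 and 421 counts, which is 40.6 and 21.1 CPM, a ratio of 1.93 (1.71 to 2.18). Its neighbour HOXC11, a gene of hindlimb and kidney patterning, had 328 and 240 counts (19.0 and 12.0 CPM), a ratio of 1.58 (1.34 to 1.88). The intervals of HOXC10 and HOXC11 overlapped. Of the exonic bases of HOXC10, 7.12% also lie in an exon of AC012531.3, which had 0 and 4 counts. HOXC6, at 17.9 and 13.2 CPM, had a ratio of 1.35 (1.14 to 1.60) that excluded 1 without reaching 1.5-fold.

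Of the genes around that pair, HOXC9, HOXC13, HOXC12 and HOXC8 had ratios within 1.5-fold. HOXC9 was at 14.95 and 12.8 CPM with a ratio of 1.17 (0.978 to 1.39), and HOXC13 at 17.0 and 14.8 CPM with 1.15 (0.978 to 1.36). HOXC12, which lies between HOXC13 and HOXC11, was at 6.72 and 8.51 CPM with 0.790 (0.618 to 1.01). HOXC8 was at 7.59 and 8.06 CPM with 0.942 (0.742 to 1.19), and at 1.02 by library totals. The intervals of HOXC9, HOXC13, HOXC12 and HOXC8 included 1. HOXC5, at 27 and 18 counts, had a ratio of 1.74 whose interval included 1 (0.922 to 3.35), and HOXC4, under the minimum at 20 and 9 counts, one of 2.57 (1.12 to 6.42). HOXC4, HOXC5 and HOXC6 share exons (33.9% of the exonic bases of HOXC5 lie in exons of other genes), so their values are uncertain. Summed over the 9 genes, HOXC had 2183 and 1834 counts, a ratio of 1.38 (1.29 to 1.47). Its 5 posterior genes, HOXC9 to HOXC13, pooled to 1.42 (1.32 to 1.53).

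**Figure D3:**
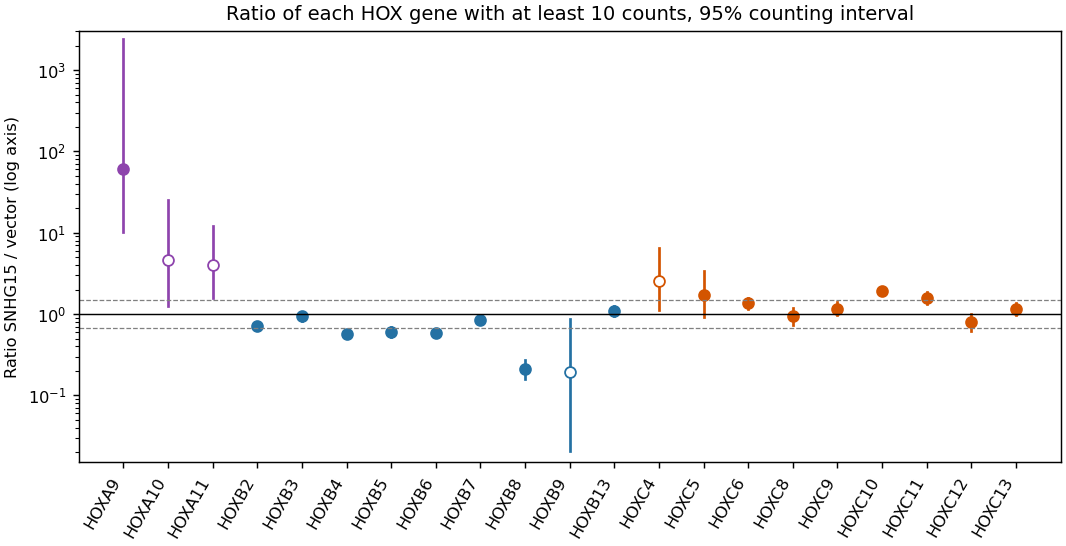
SNHG15 over vector ratio on a log axis for HOX genes with at least 10 counts over both libraries, with 95% counting intervals as bars; filled points are genes compared and open points genes under a mean of 1 CPM, purple for HOXA, blue for HOXB and orange for HOXC. Dashed lines mark 1.5-fold in each direction; HOXB8 at 0.212 lies farthest below 1 among the filled points and HOXA9 at 60.2 farthest above.

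HOXA, close to silent in the vector library, had more counts in the SNHG15 library. HOXA9 (ENSG00000078399, chr7:27162435-27175180, minus strand), a gene of posterior patterning and of leukaemia, had 52 and 1 counts (3.01 and 0.0501 CPM), a ratio of 60.2 (10.3 to 2423). It reached the minimum of 1 CPM through the SNHG15 library alone, so a difference was built into its selection and its call is no support for the group. HOXA11, a gene of forearm and uterus, had 21 and 6 counts, a ratio of 4.05 (1.58 to 12.3). HOXA10, also a gene of the uterus, had 12 and 3 counts, a ratio of 4.63 (1.25 to 25.6). HOXA13, a gene of digits and genital tract, had 6 and 0 counts, and the interval of its ratio started at 1.36.

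The HOXA genes of lower number had few counts. HOXA7, the highest of those named here, had 7 and 2 counts. The intervals of HOXA7, HOXA4, HOXA6 and HOXA3 included 1, so no difference was detectable for them at this depth. Of the 8 HOXA genes under 1 CPM, the interval lay above 1 for 3 (HOXA10, HOXA11 and HOXA13), against 7.86% of the 6095 genes of the table under 1 CPM. Summed over the 9 genes, HOXA had 112 and 18 counts, a ratio of 7.20 (4.36 to 12.6), and 4.09 (2.35 to 7.47) without HOXA9, from 60 and 17 counts. The cluster stayed low in the SNHG15 library, since its 6.49 CPM over 9 genes was less than the 17.0 CPM of HOXB5 alone. HOXD8 was the only HOXD gene with a row and had 3 and 4 counts.

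Non-coding RNAs of the clusters were read beside the HOX genes they overlap. Of the 19 listed, 12 had a row and 7 were compared, of which 0 were higher, 1 was lower and 6 were neither, with a median log2 ratio of −0.17. The count of 1 lower is near the 12.2% of all genes, and 13.3% of all genes were higher. The lower one was HOXB-AS3, which lies antisense to HOXB3, HOXB4, HOXB5 and HOXB6 and encodes a small peptide in colon cells, at 48 and 126 counts and a ratio of 0.441 (0.309 to 0.620). HOXB-AS1, between HOXB2 and HOXB3, had 96 and 117 counts and a ratio of 0.9499 (0.718 to 1.26). HOTAIR, the HOXC RNA known for its links to Polycomb complexes and breast cancer metastasis, lies beside HOXC11 and had 62 and 81 counts, a ratio of 0.886 (0.626 to 1.25).

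The other HOXC antisense RNAs had intervals that included 1. HOXC-AS3, antisense to HOXC10, had 42 and 57 counts, a ratio of 0.853 (0.559 to 1.29), where HOXC10 itself was higher. HOXC-AS1, HOXC-AS2 and HOXC13-AS had ratios of 0.760, 0.980 and 1.495. In HOXA, HOXA10-AS had 18 and 0 counts, with an interval that started at 5.09, and HOXA11-AS had 9 and 0 counts, with one that started at 2.29. HOTAIRM1, at the other end of HOXA, had 16 and 18 counts, a ratio of 1.03 (0.491 to 2.14). HOXA-AS2 had 2 and 0 counts and HOXB-AS2 0 and 4. Whether the libraries kept strand is not stated, so reads of an antisense RNA and of the gene it overlaps cannot be told apart where exons overlap. That holds for 31.1% of the exonic bases of HOXA11, 16.4% of those of HOXA10, 16.3% of those of HOXB6 and 13.9% of those of HOXA9.

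**Figure D4:**
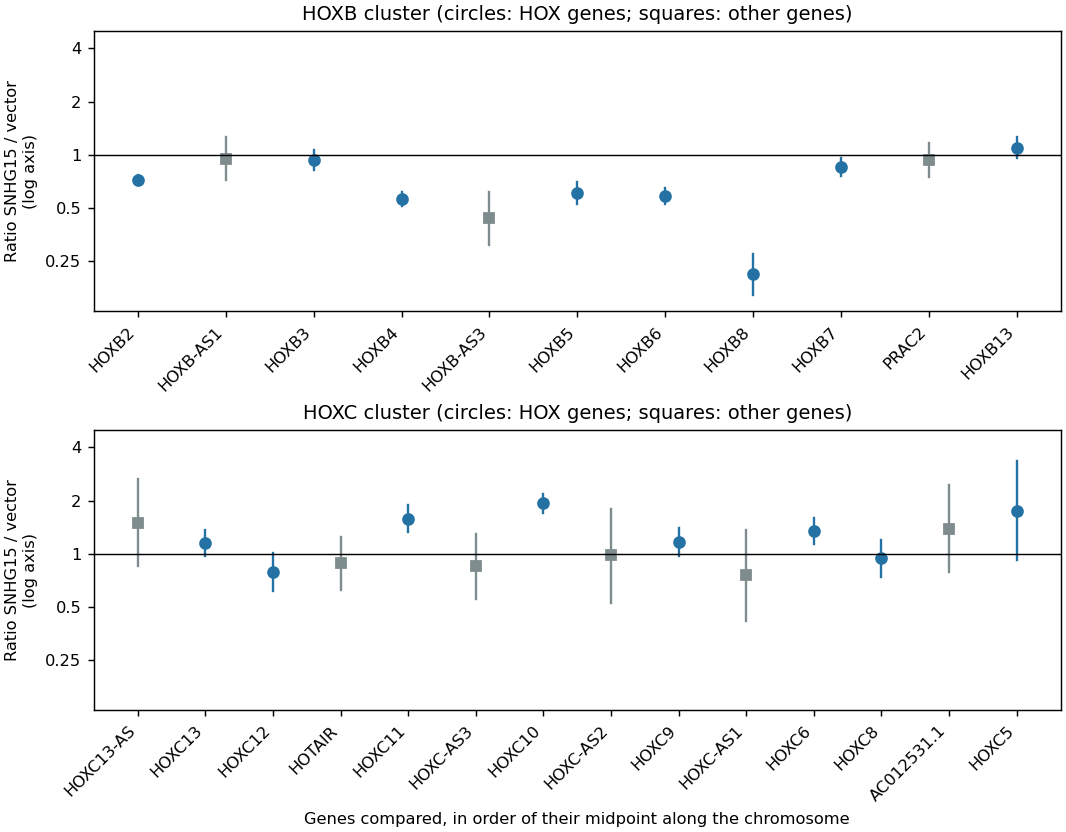
SNHG15 over vector ratio, on a log axis with 95% counting intervals, for the genes compared in HOXB (top) and HOXC (bottom) in their order along the chromosome; blue circles are HOX genes and grey squares are other genes inside the cluster. Every HOXB point but HOXB13 lies below 1, with HOXB8 (0.212) and HOXB-AS3 (0.441) lowest, and in HOXC the points of HOTAIR (0.886) and HOXC-AS3 (0.853) do not share the higher ratios of HOXC11 and HOXC10.

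Genes outside the clusters were read for comparison. The 3 nearest genes compared on either side of each cluster gave 24 genes. Of these, 1 was higher, 1 was lower and 22 were neither, against 13.3% higher and 12.2% lower of all genes compared. Their median log2 ratio was 0.05. The 24 genes lay between 65.25 kb (SMUG1) and 961.3 kb (ATF2) from the outermost HOX gene with a row, so many are not close neighbours. HOXD8 alone stood for HOXD. Around HOXB the neighbours had ratios of 0.873 to 1.67, where the highest was CBX1, a heterochromatin protein, at 66.2 and 39.6 CPM (1.53 to 1.84). CALCOCO2, the nearest on the HOXB13 side, had a ratio of 1.45 (1.17 to 1.80). Around HOXC they lay between 0.788 (SMUG1, a DNA repair enzyme) and 1.45 (CBX5, another heterochromatin protein). Around HOXA they lay between 0.809 and 1.12, with the nearest, SKAP2, at 21 and 22 counts. The lower one was LINC01116, 496.9 kb from HOXD8, at 5 and 41 counts (0.290 and 2.05 CPM). LINC01116 reached the minimum through the vector library alone, so a difference was built into its selection. Relative to the median of the nearest 40 genes on each chromosome, the log2 ratios of HOXB and HOXC had medians of −0.64 and 0.27.

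DNA-binding partners of HOX proteins were read next. PBX3, a partner of many HOX proteins, had 190 and 90 counts (11.01 and 4.51 CPM), a ratio of 2.44 (1.89 to 3.18). MEIS2 had 114 and 85 counts, a ratio of 1.55 (1.16 to 2.08). It was not called with centring on neighbouring genes, with the deeper library thinned or with the GC trend removed. PBX2, at 13.9 FPKM in the vector library, had a ratio of 0.949 (0.884 to 1.02), and MEIS3 one of 0.847 (0.767 to 0.935). PBX4 and PKNOX1 had ratios of 0.879 and 1.12, and MEIS1, under the minimum, had 14 and 13 counts. Of the ParaHox and EVX genes, 1 of 8 had a row, GSX2, with 3 and 0 counts.

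Of 24 genes of the Polycomb complexes, 23 were compared, with 3 higher, 1 lower and 19 neither, where 13.3% of all genes were higher and 12.2% lower. The share of Polycomb genes called higher was at that background, and their median log2 ratio was 0.29. By library totals 8 were higher and 0 lower, with a median of 0.40. That scaling called 2380 of all 12932 genes compared higher and 1151 lower, with a median of 0.13. With TMM scaling the higher ones were MTF2, RBBP7 and CBX2. MTF2, which recruits Polycomb repressive complex to DNA, had 83 and 46 counts (ratio 2.09, 1.44 to 3.06). RBBP7, a histone-binding subunit, had a ratio of 1.79 (1.64 to 1.95) and CBX2, a chromodomain subunit, one of 1.56 (1.43 to 1.70). The lower one was PHC2, a scaffold subunit, at 398.6 and 601.8 CPM (0.662, 0.643 to 0.682). The methyltransferase EZH2 was at 19.3 and 13.97 CPM, a ratio of 1.38 (1.18 to 1.63). Its partners SUZ12 and EED had ratios of 1.01 (0.826 to 1.23) and 0.825 (0.664 to 1.02).

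All 13 Trithorax genes and H3K27 demethylases were compared, with 1 higher, 1 lower and 11 neither and a median log2 ratio of 0.09. These counts are not distinct from the 13.3% higher and 12.2% lower of all genes. By library totals 3 were higher and 1 lower, where 2380 of all 12932 genes compared were higher and 1151 lower. MLLT3, a reader of acetylated histones, had 71 and 41 counts (ratio 2.01, 1.35 to 3.02) and AFF1, an elongation factor, 118 and 248 (0.551, 0.439 to 0.689). KMT2A, the methyltransferase known to maintain HOX expression, had a ratio of 1.07 (0.937 to 1.23). Its cofactors MEN1 and PSIP1 had ratios of 0.805 (0.743 to 0.871) and 1.47 (1.34 to 1.62). The demethylase KDM6B had one of 1.32 (1.18 to 1.48).

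Of the genes of retinoid supply and response, 9 of 15 were compared, with 0 higher, 2 lower and 7 neither, against 13.3% higher and 12.2% lower of all genes, and a median log2 ratio of −0.23. By library totals, where 2380 of all 12932 genes compared were higher and 1151 lower, 10 of the list were compared. Of these 10, 3 were higher and 2 lower (median −0.02). The lower ones were DHRS3, which reduces retinaldehyde, at 207.6 and 1029 CPM with a log2 ratio of −2.31, and RARB, a retinoic acid receptor, with −1.27. CYP26B1, which degrades retinoic acid, had 41 and 31 counts and a ratio of 1.53 (0.937 to 2.53), and the carrier CRABP2 one of 1.47 (1.14 to 1.89). Of a last list of HOX regulators, 9 of 12 were compared, with 3 higher, 2 lower and 4 neither, against the same 13.3% and 12.2%, and a median of 0.10. YY1, a zinc-finger factor, had a ratio of 1.67 (1.52 to 1.84) and GDF11, a ligand that sets posterior HOX expression, one of 1.65 (1.49 to 1.83). CTCF, which insulates HOX domains, had a ratio of 1.56 (1.40 to 1.75). With centring on neighbouring genes only CTCF of these 3 was called, and with the GC trend removed only YY1 and GDF11 were. FGF2 and EGR2 had ratios of 0.507 (0.460 to 0.559) and 0.480 (0.256 to 0.864).

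**Figure D5:**
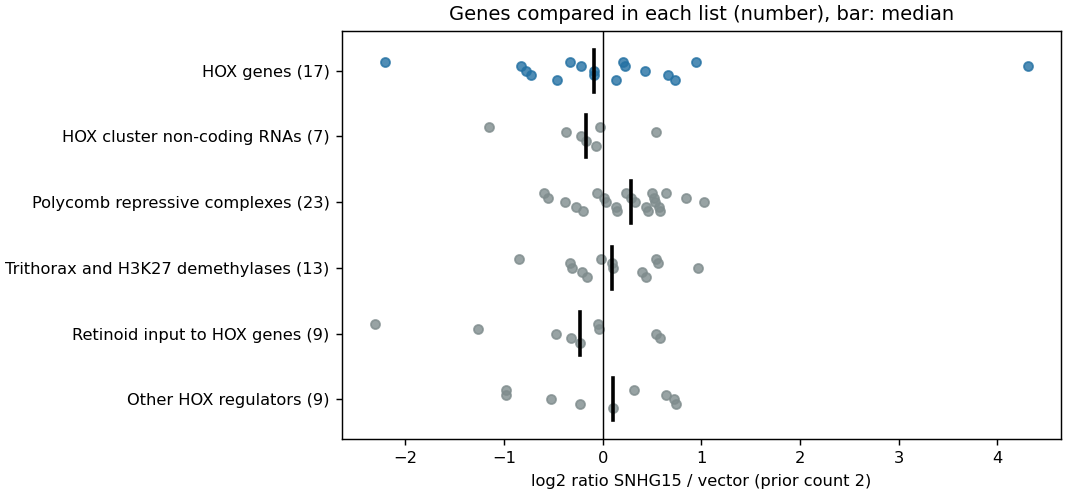
log2 ratio, SNHG15 over vector, with a prior count of 2, for each gene compared in 6 sets, named with their number of genes compared; points are genes and black bars are medians. The HOX genes reach from HOXB8 (−2.21) to HOXA9 (4.31) around a median of −0.09.

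In the authors' deposited table, 2 HOXA genes and 1 HOXC gene were called up (HOXA9, HOXA11 and HOXC10) and 1 gene was called down (HOXB8), against 4.88% of all genes called up and 3.27% called down. The authors' deposited table gives HOXC10 a log2 ratio of 1.06 from FPKM, which follow the library totals, against 0.94 with TMM scaling here. HOXA11 was under the minimum of 1 CPM here. For HOXB4, HOXB5 and HOXB6 the authors' deposited table gives log2 ratios of −0.71, −0.61 and −0.66 and no call, and for HOXC11 the authors' deposited table gives 0.78 and no call. Each of these is smaller in size than the 1.06 of HOXC10. The rule behind the authors' calls was not examined, so the lack of a call does not mean the lack of a difference.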

How the data were processed

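RNA sequencing of BT549 cells gave 1 library per group, and groups follow the genotype in the labels. The authors deposited whole-number counts per gene, their own FPKM and log2 ratio, and p-values that the table's name credits to edgeR. Build hg38 is per the submitters' processing notes, and the aligner, the counter and strandedness are not given in the sources used here. Of these, the log2 ratio was quoted only as the authors' and no p-value was used. The subsets of called genes repeat its rows and stayed unused. From the counts, TMM factors of edgeR 4.0.16 (1.04 for the SNHG15 library, 0.960 for the vector library) gave CPM. Ratios are SNHG15 over vector with exact conditional-binomial (Clopper-Pearson) 95% intervals. Intervals, and the floor of 3 counts (0.174 and 0.150 CPM), cover counting error only, since reads are not independent molecules. The median gene compared had 284 and 315 counts. Log2 ratios used a prior count of 2. The interval and call functions were tested on simulated data. Exons, GC content and 3′ untranslated regions came from GENCODE 29, whose loci matched all 28 members. Named genes were all HOX genes, 3 compared genes on either side of each cluster, compared non-coding RNAs of the clusters, and up to 4 members of each other list by the size of the log2 ratio. Cell type markers were named beside that rule, as was SNHG15. PBX2, PBX4, PKNOX1, MEIS1, GSX2, EZH2, SUZ12, EED, KMT2A, MEN1, CTCF, KDM6B, AC012531.3, HOTAIRM1, HOXA10-AS, HOXA11-AS, HOXA-AS2 and HOXB-AS2 fall outside that rule and were chosen with their values in view. Members and lists were chosen with earlier results of these data known. Protein sequences were not used here. Some genes and the counts that rest on them are not reported here. The alternatives scaled by DESeq2 1.42.0 or by library totals and used centring on 40 neighbouring genes, no filter, at least 5 CPM, the vector library thinned at random, other prior counts, FPKM with pseudocounts of 1 and 0.1, the mean, and members without same-strand overlap. Removal of the GC trend (lowess, span 0.5) and leaving out HOXA9 were added after the data were seen.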

Additional observations from a re-analysis of the deposited data

How the results depend on the processing

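HOX genes lower by 1.5-fold numbered 4 or 5 under every alternative run, and HOXB4, HOXB5, HOXB6 and HOXB8 were among them each time. HOXC10 and HOXC11 stayed higher under each alternative. With no filter on low counts all 28 HOX genes were compared and 7 were higher, the added ones being HOXA10, HOXA11, HOXA13 and HOXC4. Of all 19029 genes, 2204 were higher and 1960 lower in that setting. With a minimum of 5 CPM, HOXA9 was no longer compared, which left 0 HOX genes beyond 2-fold higher. Of all genes, 162 of 9661 compared were then beyond 2-fold higher, in place of 285 of 12934. The median log2 ratio of the HOX genes was close to 0 and its sign was not stable. It was 0.03 by library totals, which raised the median of all genes from 0.02 to 0.13, 0.21 with no filter, 0.01 with the deeper library thinned, 0.0245 and 0.0297 from FPKM with pseudocounts of 1 and 0.1, 0.11 as a mean and 0.14 over members without same-strand overlap. The cause of these sign changes was not tested. With the GC trend removed, 4 HOX genes were higher, HOXC5 being the added one, where 1718 of all 12934 genes compared were higher. The split of all genes beyond 2-fold was then 314 higher and 248 lower. Of 100 single-gene ratios recomputed, 96 stayed inside the main counting interval, 4 moved outside it (HOXB2 in 2 settings, HOXB6 and HOXB13) and 0 changed direction among the genes called. Genes of a few counts, as in most of HOXA, are limited by depth. No paired analysis was possible because each group has 1 library.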
